A study of Mus musculus with 3 samples.

Results

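The genes described here were 8 members of the calcineurin and NFAT system, out of 32285 features counted, in follicular T cells of immunised mice. They were chosen by name: the calcineurin catalytic subunits Ppp3ca, Ppp3cb and Ppp3cc, the regulatory subunit Ppp3r1, the transcription factors Nfatc1, Nfatc2 and Nfatc3, and the calcineurin inhibitor Rcan1. For each gene the raw molecule counts (unique molecular identifiers, UMIs) were summed over the cells that the authors' tables place in a class and a subcluster. The BKO library came from mice labelled as a knockout of Siglec-G in B cells (1 sample, batch 1), with 8433 annotated cells, 6389 Tfh and 2044 Tfr. The WT mice gave 2 samples: replicate 1, of batch 1, with 5143 annotated cells (3727 Tfh, 1416 Tfr), and replicate 2, of batch 2, with 5117 (3668 Tfh, 1449 Tfr). In every group the animals had received OVA in liposomes, organs were taken on day 14, and viable Tfh and Tfr cells were sorted by surface markers and run on the droplet-based Chromium 3′ assay. The tissue label is spleen, while the protocol names spleens and lymph nodes. Strain, age, the number of animals and the driver of the B-cell deletion are not given in the sources used here. Siglecg, deleted in B cells and not in the sorted T cells, gave 1 UMI in BKO cells, against 4 and 4 UMIs in the WT samples, which checks little.

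The 2 WT samples were not separate cells. Each of the 5554 barcodes in WT replicate 1 recurred in WT replicate 2, which has 5721, with a Pearson r of 0.997 between their UMI totals, so they were treated as 2 runs of 1 library. BKO cells shared 13 barcodes with WT replicate 2 and 11 with WT replicate 1. The comparison of BKO with WT is therefore 1 library against 1, without a test, and genotype, library and counting program cannot be told apart. By label, BKO and WT replicate 1 share a batch. Median depth was 6431 UMIs a cell in BKO, against 4584 and 7527 in the WT runs. Among 5068 WT cells annotated in both runs, 527 (10.4%) were in different classes. Foxp3, the defining transcription factor of regulatory T cells, had at least 1 UMI in 2044 of 2044 BKO Tfr cells and in 1416 of 1416 and 1449 of 1449 WT Tfr cells, at 349 CPM (a gene's UMIs per 1000000 UMIs of the summed cells) in BKO and 356 and 331 in the WT runs. Among Tfh cells 58 had a Foxp3 UMI in BKO (1.33 CPM), against 15 and 365 in WT (0.80 and 16.5 CPM). With every Tfr cell positive, Foxp3 is no independent check of the class. The summed Tfr markers, Foxp3 among them, stood at 4069 CPM in BKO Tfr cells and 3980 and 4023 CPM in WT Tfr cells. In Tfh cells they stood at 1561 CPM in BKO and 1759 and 1779 CPM in WT. The summed Tfh markers stood at 1744 CPM in BKO Tfh and 1469 CPM in BKO Tfr cells. In WT they stood at 1630 and 1637 CPM in Tfh and 1354 and 1354 CPM in Tfr cells. The summed B-cell markers stood at 2.88 CPM in BKO Tfh cells and 3.68 and 3.64 CPM in WT Tfh cells. In Tfr cells those markers stood at 9.10 CPM in BKO and 8.06 and 8.93 CPM in WT. Other marker sums differed more in Tfh cells: those of CD8 T and NK cells stood at 21.4 CPM in BKO and 40.7 and 40.2 CPM in WT, with Ncr1 at 0 in BKO and in WT replicate 1 and Cd8a at 0 in WT replicate 1. Myeloid markers stood at 4.55 CPM in BKO and 7.95 and 7.09 CPM in WT, plasma cell markers at 11.7 CPM and 7.90 and 7.86 CPM, and the erythroid globins at 4.92 CPM and 0.64 and 0.80 CPM. The part of these in the Tfh results below was not tested.

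Calcineurin is a calcium-activated phosphatase made of a catalytic and a regulatory subunit. After antigen-receptor engagement, calcium and calmodulin activate it, it removes phosphates from NFAT proteins, and these enter the nucleus and act with partner factors such as AP-1, or with Foxp3 in regulatory T cells. RCAN1 binds and inhibits calcineurin, and its internal promoter is itself a known NFAT target. In T cells a short NFATc1 isoform is induced through an NFAT-driven promoter, and NFAT activity is known to be needed for the Tfh programme.

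The 2 promoters of Rcan1 are shown because that gene joins both ends of the circuit. The RefSeq promoter table (GRCm38.p6) matched 5 of the 8 members, with 8 promoters. The 250 bases before each start were searched for the NFAT core GGAAA on both strands, which reads TTTCC on the reverse. Capitals mark the matches, and each line reads 5′ to 3′ on the gene's strand.
Rcan1, internal start, chr16:92400079-92400328, minus strand: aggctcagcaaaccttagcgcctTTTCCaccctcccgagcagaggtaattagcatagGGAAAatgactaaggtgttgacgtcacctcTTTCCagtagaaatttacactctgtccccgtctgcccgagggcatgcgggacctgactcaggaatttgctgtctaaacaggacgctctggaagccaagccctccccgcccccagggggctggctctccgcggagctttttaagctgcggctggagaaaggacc
Rcan1, upstream start, chr16:92466170-92466419, minus strand: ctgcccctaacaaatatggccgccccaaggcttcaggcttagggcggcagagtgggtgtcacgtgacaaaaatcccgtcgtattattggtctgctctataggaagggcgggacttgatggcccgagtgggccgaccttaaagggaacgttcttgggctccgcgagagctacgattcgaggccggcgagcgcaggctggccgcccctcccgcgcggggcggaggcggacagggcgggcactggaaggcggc
The internal start held 3 matches and the upstream start held 0. Of 32851 promoters of the same length, 55.6% held at least 1 match and 6.39% held 3 or more. Ppp3cb held 3 matches at chr14:20546574-20546823, and Nfatc2 held 3 at its start at chr2:168601658-168601907 and 1 at chr2:168590366-168590615. Nfatc3 held 1 match at chr8:106058568-106058817 and 0 at chr8:106059340-106059589, and Ppp3r1 held 0 at chr11:17159048-17159297. A match describes the letters of this window and is no binding site by itself. UMIs from the 3′ end do not separate the transcripts of these promoters.

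The catalytic subunit Ppp3ca was the member that differed between BKO and WT, and it did so in Tfh cells. Ppp3ca (ENSMUSG00000028161, chr3:136670124-136937727, plus strand, GRCm38) encodes the alpha isoform of the phosphatase. In Tfh cells it gave 26.2 CPM in BKO (95% Poisson interval 24.7 to 27.8, from 1147 UMIs), against 78.0 CPM in WT replicate 1 (74.0 to 82.1, 1461 UMIs) and 73.4 CPM in WT replicate 2 (70.4 to 76.6, 2197 UMIs). BKO lay below both WT runs, 2.85-fold under their mean. The log2 ratio was -1.51 (counting interval -1.61 to -1.41), or -1.55 against WT replicate 1, of the same batch, and -1.47 against WT replicate 2. Intervals here cover counting error alone and say nothing of the spread between animals. The rule of size asked for a mean of 20 CPM over the 3 samples and for 1.5-fold or more between BKO and each WT run on the same side. By that rule 1 of the 7 measured members was lower in BKO Tfh cells and 0 were higher, beside 2.45% lower and 0.396% higher among 6559 genes. Ppp3ca ranked at the 0.305th percentile of all ratios.

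**Figure D1:**
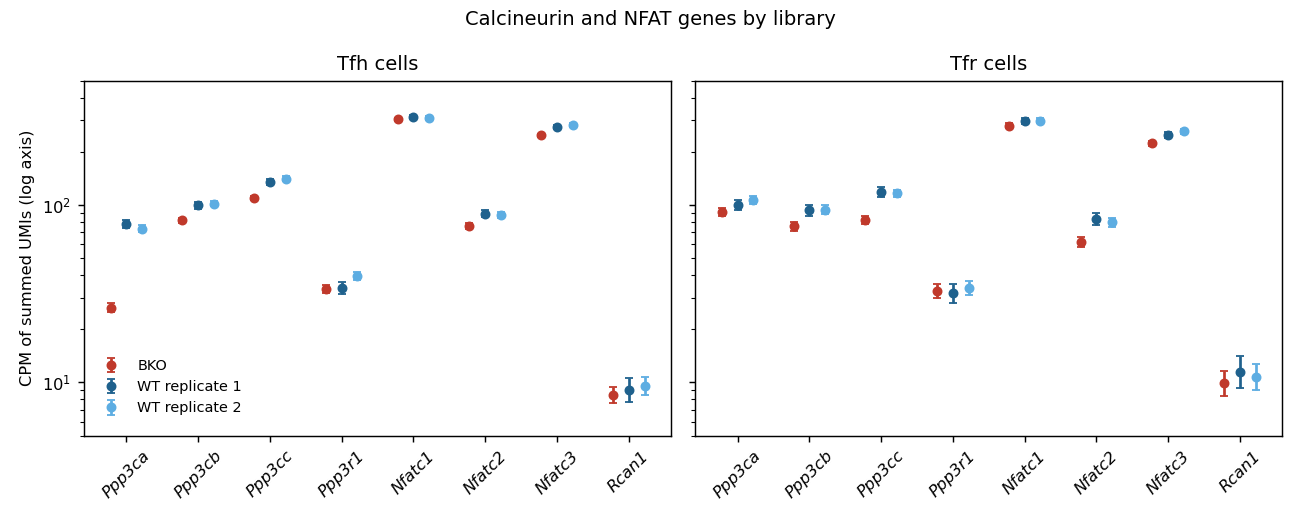
UMIs scaled to library size (CPM, log axis) of the 8 members in the BKO library and the 2 WT runs, in Tfh cells and in Tfr cells, with 95% Poisson intervals. Ppp3ca in Tfh cells is the member set apart, at 26.2 CPM in BKO against 78.0 and 73.4 CPM in WT, while in Tfr cells it stands at 91.3 CPM against 99.9 and 107 CPM.

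In Tfr cells the same gene stood close to WT. Ppp3ca gave 91.3 CPM in BKO (86.5 to 96.2), against 99.9 and 107 CPM in the WT runs, a log2 ratio of -0.18 (-0.28 to -0.07). None of the 7 measured members was called in Tfr cells, where 2.4% of 6539 genes were lower and 0.887% higher. The difference between the classes, Tfr minus Tfh of the BKO-over-WT log2 ratios, was 1.33 for Ppp3ca (counting interval 1.19 to 1.48), at the 99.9th percentile of 6310 genes whose differences had a median of 0.00 and an SD of 0.17. For the other members it ran between -0.18 for Ppp3cc and 0.13 for Ppp3r1. No test over animals stands behind this difference.

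Within each library, the Tfr and Tfh levels of Ppp3ca were apart by different amounts. In BKO, Tfr cells had 91.3 CPM and Tfh cells 26.2 CPM, 3.43-fold higher (log2 1.78, interval 1.67 to 1.89), the 1 member called higher in Tfr cells beside 4.65% of genes. In WT replicate 1 the levels were 99.9 CPM in Tfr and 78.0 CPM in Tfh cells, 1.28-fold, and in WT replicate 2 they were 107 and 73.4 CPM, 1.45-fold. No member was called higher in the WT runs, where 2.85% and 3.08% of genes were. No member was called lower in Tfr cells in any library, against 3.07% of genes in BKO and 2.6% and 2.5% in the WT runs. Ppp3cc had the lowest ratio of the other members, with 82.2 CPM in Tfr and 109 CPM in Tfh cells of BKO (log2 -0.41), and -0.18 and -0.27 in the WT runs.

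The makeup of the Tfh class differed between BKO and WT, and its part in the Ppp3ca gap was not tested. The authors' Tfh subcluster 5 held 11 of the BKO Tfh cells (0.17%), against 359 (9.63%) and 363 (9.90%) in the WT runs. Ppp3ca reached 181 CPM in the 11 BKO cells of that subcluster (interval 103 to 293, 16 UMIs), against 304 (279 to 331) and 298 CPM (279 to 319) in WT. Subcluster 5 supplied 1.39% of all Ppp3ca UMIs of BKO Tfh cells, against 37.0% and 40.2% in WT. Its cells were rich in the chemokine Ccl5, at 11219 CPM in BKO and 22037 and 20144 CPM in WT. They held Cd4 at 260 CPM in BKO and 350 and 345 CPM in WT, and Cxcr5, the follicle-homing receptor, at 147 CPM and 167 and 154 CPM. Cd8a gave 0 UMIs there in all 3 samples, while Cd8b1 gave 0 UMIs in BKO and 19 and 22 in WT.

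Taking subcluster 5 out, an alternative chosen after seeing the data, left Ppp3ca at a log2 ratio of -0.98 and still called lower. With each subcluster given the same weight in every library, over subclusters of at least 50 cells in each, the ratio was -0.54 and the call ended. Weights followed each subcluster's mean share of cells over the 3 samples, 2 of them WT, so subclusters did not count alike. This setting is called equal weights below. At the same time BKO held other Tfh subclusters in other shares. Subcluster 2, where Ppp3ca was low (16.3 CPM in BKO, 23.5 and 20.3 CPM in WT), made up 34.1% of BKO Tfh cells, against 6.90% and 7.33% of WT Tfh cells. Subcluster 1, where it was higher (53.9 CPM in BKO, 78.5 and 65.9 CPM in WT), made up 14.4% in BKO, against 24.9% and 23.6% in WT. Clusters were made from expression, so these levels are a description.

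**Figure D2:**
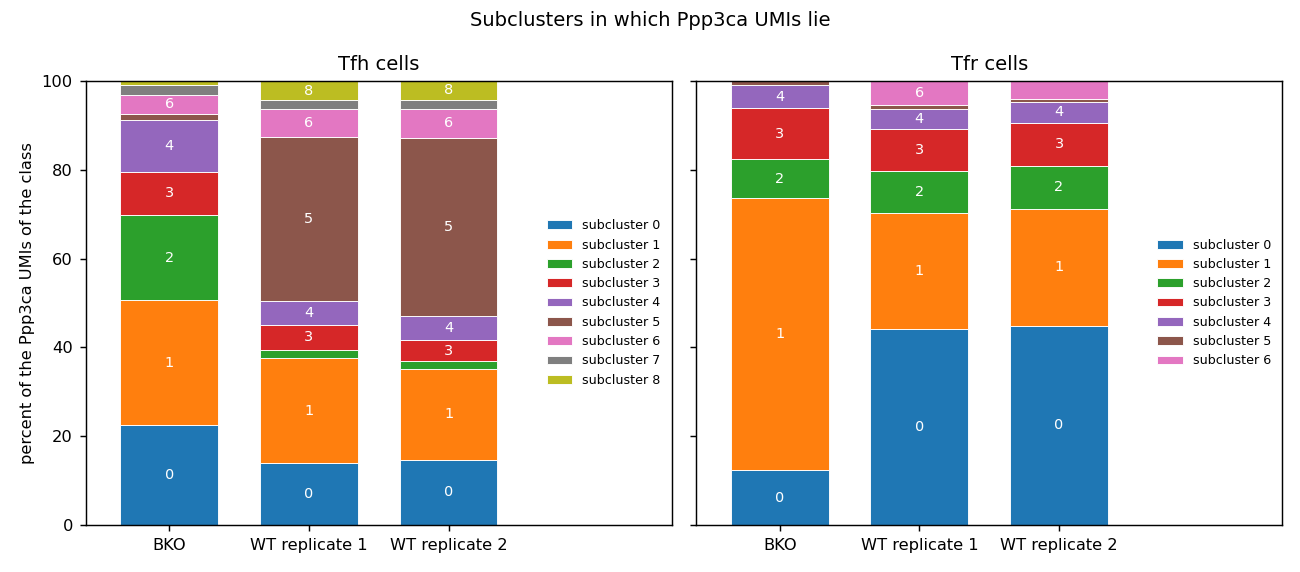
Percent of the Ppp3ca UMIs of a class that lies in each of the authors' subclusters, for the BKO library and the 2 WT runs, Tfh and Tfr cells. Tfh subcluster 5 carries 1.39% in BKO against 37.0% and 40.2% in WT, and Tfr subcluster 1 carries 61.3% in BKO against 26.0% and 26.5% in WT.

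Inside single subclusters BKO mostly lay on the same side. Over the 12 subclusters with at least 50 cells in every library, Ppp3ca in BKO lay below both WT runs in 11 and above both in 1. The share of all genes on the same side is not given here. The median log2 ratio of all measured genes was below 0 in each of the 12, from -0.113 in Tfr subcluster 2 to -0.0172 in Tfh subcluster 0. Ppp3ca was called lower in Tfh subcluster 4, with 34.0 CPM in BKO and 64.9 and 60.6 CPM in WT, where 4.33% of genes were called lower. In Tfh subcluster 7 it stood at 24.7 CPM in BKO (15.8 to 36.7) and 95.8 (63.1 to 139) and 93.7 CPM in WT, with 10.3% of genes called lower. The third such call was in Tfr subcluster 0, with 72.0 CPM in BKO and 111 and 117 CPM in WT, beside 1.19% of genes. Tfh subcluster 3 had 11.8 CPM in BKO and 26.6 and 21.4 CPM in WT (log2 -0.99). That gap passed 1.5-fold against both runs and went uncalled because the mean lay under 20 CPM. The exception was Tfr subcluster 4, at 85.2 CPM in BKO and 58.4 and 73.0 CPM in WT. Other members were called in 2 places: Ppp3cc was lower in Tfh subcluster 7 (84.3 CPM in BKO, 163 and 158 CPM in WT), and Ppp3cb in Tfr subcluster 2 (51.0 CPM in BKO, 84.5 and 85.0 CPM in WT), where 5.98% of genes were called lower.

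The makeup of the Tfr class differed as well. Tfr subcluster 1 was the richest of the larger Tfr subclusters in Ppp3ca, with 154 CPM in BKO and 159 and 163 CPM in WT. It held 36.3% of BKO Tfr cells, against 16.2% and 17.1% of WT Tfr cells, and 61.3% of the Ppp3ca UMIs of BKO Tfr cells, against 26.0% and 26.5% in WT. Tfr subcluster 0 held 15.4% of BKO Tfr cells, against 39.1% and 40.0% in WT. With equal weights in every library the Tfr ratio of Ppp3ca was -0.31, and the Tfr minus Tfh difference shrank to 0.23.

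Spans of levels were taken over the subclusters of at least 50 cells in every library. Tfh subcluster 5, with 11 BKO cells and the highest Ppp3ca of its class, was left out, as was Tfr subcluster 6, with 0. Also left out were Tfr subcluster 5, with 32 BKO cells, and Tfh subcluster 8, with 46, whose Ppp3ca levels are given at the end. Of the 7 measured members, Ppp3ca also had the widest such span in every library and class. Its highest Tfh subcluster stood 4.42-fold over its lowest in BKO, and 4.01-fold and 4.52-fold in the WT runs, while the median over all genes was 1.67-fold in BKO and 1.77-fold and 1.66-fold in WT. In Tfr cells the span was 3.99-fold in BKO and 2.96-fold and 2.64-fold in WT, against medians of 1.59-fold and 1.58-fold and 1.52-fold. The lowest Tfh level was in subcluster 3 for BKO, at 11.8 CPM, and in subcluster 2 for the WT runs, at 23.5 and 20.3 CPM. After thinning each cell to 2500 UMIs, 5.09% of BKO Tfh cells had a Ppp3ca UMI, against 13.6% and 13.4% of WT Tfh cells (10.9% in BKO and 21.5% and 25.7% in WT without thinning). In Tfr cells the thinned shares were 17.4% in BKO and 18.0% and 19.0% in WT. No cell type that lacks these genes was among the kept cells to give a background share.

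**Figure D3:**
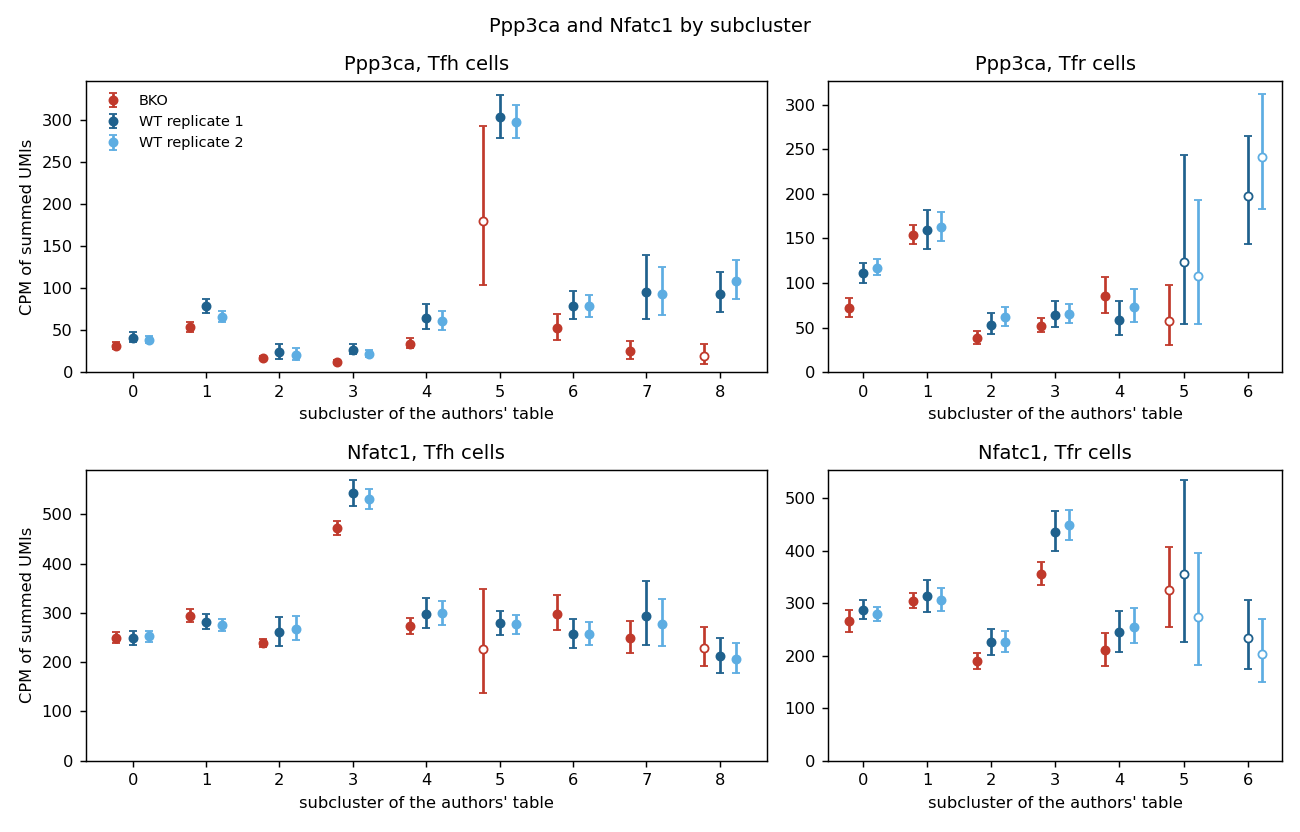
CPM of Ppp3ca and of Nfatc1 in each of the authors' Tfh and Tfr subclusters, for the BKO library and the 2 WT runs, with 95% Poisson intervals; hollow points stand for 10 to 49 cells. Ppp3ca is highest in Tfh subcluster 5 (181 CPM in BKO, 304 and 298 CPM in WT), and in Tfr cells in subcluster 1 for BKO (154 CPM) and in the small subcluster 6 for WT (198 and 241 CPM); Nfatc1 is highest in subcluster 3 of both classes among the filled points.

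The other catalytic subunits showed smaller ratios. Ppp3cb (ENSMUSG00000021816, chr14:20499364-20546573, minus strand), the beta isoform, had 81.9 CPM in BKO Tfh cells, against 99.7 and 102 CPM in WT (log2 -0.30, interval -0.37 to -0.23). Its Tfr levels were 75.9 CPM in BKO and 93.3 and 94.0 CPM in WT, again -0.30. Neither class passed the rule of size. In Tfh subcluster 0 it stood at 103 CPM in BKO and 109 and 111 CPM in WT, the highest Tfh level in BKO and in WT replicate 1, while in WT replicate 2 subcluster 6 was higher, at 115 CPM. Its highest Tfh subcluster was 1.47-fold over its lowest in BKO, and 1.61-fold and 1.48-fold in WT.

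Ppp3cc (ENSMUSG00000022092, chr14:70217865-70289471, minus strand), the gamma isoform, had 109 CPM in BKO Tfh cells, against 134 and 141 CPM in WT (log2 -0.33). In Tfr cells it had 82.2 CPM in BKO and 119 and 116 CPM in WT, a log2 ratio of -0.51 (-0.62 to -0.41), 1.43-fold lower and at the 4.88th percentile, short of the 1.5-fold rule. Among subclusters of at least 50 cells in every library, subcluster 0 again carried the highest levels. These were 165 CPM in BKO and 170 and 173 CPM in WT for Tfh cells, and 137 CPM in BKO and 157 and 147 CPM in WT for Tfr cells. Its subclusters therefore ranked unlike those of Ppp3ca, whose Tfh subcluster 0 stood at 31.3 CPM in BKO and 41.2 and 38.8 CPM in WT.

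Ppp3r1 (ENSMUSG00000033953, chr11:17159263-17200375, plus strand), the calcium-binding regulatory subunit, stood close in BKO and WT. It had 33.5 CPM in BKO Tfh cells, against 34.1 and 39.7 CPM in WT (log2 -0.14), and 32.8 CPM in BKO Tfr cells, against 31.8 and 34.0 CPM in WT (log2 0.00). BKO lay within the WT runs in Tfr cells. In subcluster 3 of the Tfh class it reached 39.2 CPM in BKO and 42.2 and 48.7 CPM in WT, and in Tfr subcluster 3 it reached 35.9 CPM in BKO and 40.9 and 41.6 CPM in WT.

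Among the NFAT factors, Nfatc1 (ENSMUSG00000033016, chr18:80606205-80713071, minus strand), the inducible member, was nearly equal in BKO and WT. Tfh cells had 303 CPM in BKO, against 312 and 309 CPM in WT (log2 -0.03, interval -0.07 to 0.00). Tfr cells had 280 CPM in BKO, against 298 and 299 CPM in WT (log2 -0.10). After thinning, 45.5% of BKO Tfh cells had an Nfatc1 UMI, against 45.5% and 47.8% of WT Tfh cells. In Tfr cells the shares were 44.5% in BKO and 48.3% and 46.9% in WT.

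Among subclusters of at least 50 cells, Nfatc1 was highest in subcluster 3 of both classes, in all 3 samples. Tfh subcluster 3 had 472 CPM in BKO (458 to 486), against 542 (516 to 569) and 531 CPM (511 to 552) in WT. The other Tfh subclusters of at least 50 cells ranged between 239 and 298 CPM in BKO, 212 and 298 CPM in WT replicate 1, and 207 and 299 CPM in WT replicate 2, so that none of them reached subcluster 3. Tfr subcluster 3 had 356 CPM in BKO (335 to 378) and 436 (400 to 475) and 448 CPM (421 to 477) in WT. This subcluster also carried the highest levels of the receptor-induced genes Egr2, Egr3 and Nr4a1. Egr2 stood there at 96.1 CPM in BKO and 86.6 and 82.7 CPM in WT Tfh cells, and Nr4a1 at 64.7 CPM in BKO and 78.5 and 70.4 CPM in WT.

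Nfatc2 (ENSMUSG00000027544, chr2:168476410-168601657, minus strand) and Nfatc3 (ENSMUSG00000031902, chr8:106058840-106130537, plus strand) are the factors that resting T cells already hold. Nfatc2 had 76.1 CPM in BKO Tfh cells, against 89.4 and 87.6 CPM in WT (log2 -0.22), and 61.9 CPM in BKO Tfr cells, against 83.4 and 79.7 CPM in WT (log2 -0.39). Nfatc3 had 247 CPM in BKO Tfh cells, against 276 and 282 CPM in WT (log2 -0.17), and 223 CPM in BKO Tfr cells, against 248 and 260 CPM in WT (log2 -0.19). BKO lay below both runs for both genes in both classes, within the 1.5-fold rule. Their subclusters differed: Nfatc2 was highest in Tfh subcluster 0, at 108 CPM in BKO and 108 and 106 CPM in WT. Nfatc3 peaked, among subclusters of at least 50 cells, in Tfh subcluster 4, at 333 CPM in BKO and 381 and 402 CPM in WT.

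Rcan1 (ENSMUSG00000022951, chr16:92391953-92470867, minus strand), the inhibitor whose promoters are shown above, was sparse and stayed under the 20 CPM minimum. Tfh cells had 8.51 CPM in BKO (372 UMIs), against 9.07 and 9.49 CPM in WT (170 and 284 UMIs), a log2 ratio of -0.12 whose interval, -0.34 to 0.10, spans 0. Tfr cells had 9.89 CPM in BKO, against 11.4 and 10.7 CPM in WT (log2 -0.16). Shares of thinned cells with a UMI were 1.90% in BKO Tfh cells and 1.87% and 2.35% in WT Tfh cells. Its levels by subcluster rest on few UMIs. Tfr subcluster 3 had 13.7 CPM in BKO, against 18.0 and 15.6 CPM in WT, and Tfr subcluster 1 had 6.85 CPM in BKO, against 7.37 and 6.83 CPM in WT. Tfr subcluster 0 had 17.3 CPM in BKO, against 11.8 and 11.3 CPM in WT.

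All 8 members had a Tfh ratio below 0, as did 63.3% of all measured genes and 86.3% to 96.0% of the genes with over 30 kb of intron, which all 8 members have. Their median was -0.20, beside -0.10 for all measured genes. The Tfr median was -0.18, beside -0.09. Over all genes, the ratios moved with the length of the genes' introns. The BKO library was counted with Cell Ranger 4 and the WT samples with cellranger-7.0.1, per the file headers, and neither labels nor headers say whether intron reads entered the counts. Over all genes of under 3 kb of intron the median log2 ratio of BKO over WT was 0.17 in Tfh and 0.18 in Tfr cells. Over genes of more than 100 kb of intron it was -0.36 in Tfh and -0.37 in Tfr cells.

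**Figure D4:**
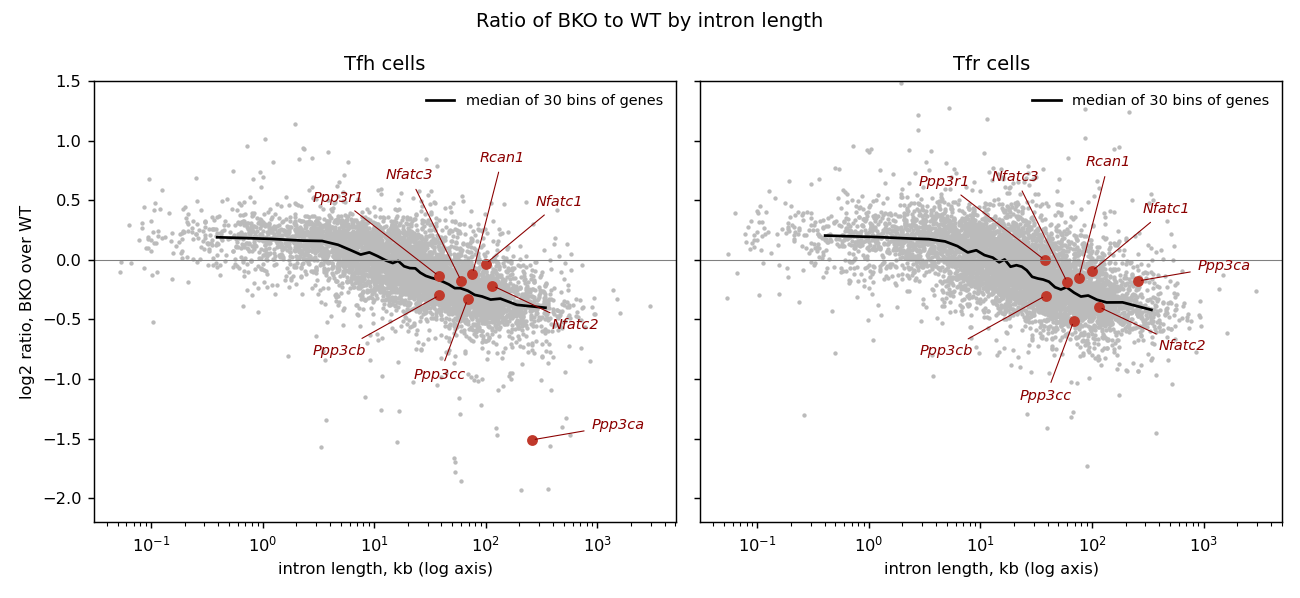
Log2 ratio of BKO over WT against intron length (kb, log axis) of each measured gene in Tfh and in Tfr cells, with the running median of 30 bins in black and the members named. Ratios fall with intron length, Ppp3ca lies far below the trend in Tfh cells (-1.51), and Nfatc1 lies above it (-0.03); 137 Tfh genes and 122 Tfr genes fall outside the axes.

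Set beside genes of like intron length, the members took other places. Ppp3ca, with 257.6 kb of intron, lay far below its 250 neighbours in Tfh cells (-1.51 against a median of -0.38), and above them in Tfr cells (-0.18 against -0.39). Nfatc1, with 99.4 kb, lay above its neighbours in Tfh cells (-0.03 against -0.31, the 92.6th percentile of 852 genes) and in Tfr cells (-0.10 against -0.32). The other measured members lay nearer to theirs in Tfh cells: Ppp3cb had -0.30 against -0.18, Ppp3cc -0.33 against -0.26, and Nfatc3 -0.17 against -0.24. With TMM factors in place of totals, the median of all genes shifted by 0.15 in Tfh and 0.11 in Tfr cells. The share of called genes that were higher in BKO then moved to 42.2% in place of 13.9% in Tfh cells, and to 57.4% in place of 27.0% in Tfr cells. Over the scaling, intron and makeup alternatives the Tfh ratios of Ppp3r1, Nfatc1, Nfatc2, Nfatc3 and Rcan1 took both signs, while those of Ppp3ca, Ppp3cb and Ppp3cc stayed below 0. In Tfr cells Ppp3cb, Ppp3cc and Nfatc2 stayed below 0, and the other members took both signs.

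Cells in which receptor-induced genes were detected were set against cells in which they were not, within each library. A cell was counted as such when, thinned to 2500 UMIs, it held at least 1 UMI of Egr2, Egr3 or Nr4a1. That held for 577 BKO Tfh cells (9.13%), against 261 (7.39%) and 292 (8.08%) in the WT runs, and for 213 BKO Tfr cells (10.5%), against 119 (8.62%) and 136 (9.40%). Nfatc1 was higher in those cells in every library and class. In Tfh cells it stood at 451 CPM in cells with and 278 CPM in cells without such a UMI in BKO (1.62-fold), at 549 and 270 CPM in WT replicate 1 (2.03-fold), and at 530 and 285 CPM in WT replicate 2 (1.86-fold). In Tfr cells it stood at 419 and 261 CPM in BKO (1.61-fold), 474 and 277 CPM in WT replicate 1 (1.71-fold), and 482 and 277 CPM in WT replicate 2 (1.74-fold).

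Nfatc1 was the 1 member called higher in each of these 6 comparisons. The share of all genes called higher was 3.99% in BKO and 6.21% and 5.69% in WT for Tfh cells, and 6.58% in BKO and 9.53% and 9.51% in WT for Tfr cells. Since subcluster 3 had the highest levels of these 3 genes, the comparison was repeated without it, an alternative chosen after seeing the data. In the same thinned cells the ratio for Nfatc1 was then 1.30 in BKO and 1.77 and 1.59 in WT for Tfh cells, and 1.60 in BKO and 1.83 and 1.76 in WT for Tfr cells. Inside subcluster 3 it was 1.28 in BKO and 1.42 and 1.39 in WT for Tfh cells, and 1.35 in BKO and 1.23 and 1.28 in WT for Tfr cells. The log2 intervals there spanned 0 in both WT runs for Tfr cells (-0.13 to 0.72 and -0.02 to 0.74). A second random draw of the thinning, also added after seeing the data, gave log2 ratios for the whole class of 0.79 in BKO and 0.97 and 0.88 in WT for Tfh cells, and of 0.54 in BKO, no longer called, and 0.83 and 0.96 in WT for Tfr cells. Without subcluster 3 that draw gave ratios of 1.43 in BKO and 1.63 and 1.67 in WT for Tfh cells. For Tfr cells it gave 1.23 in BKO and 1.52 and 1.80 in WT. Inside subcluster 3 the Tfr ratios of that draw were 1.56 in BKO and 1.71 and 1.49 in WT.

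Nfatc3 lay lower in the cells with such a UMI. Its Tfh levels were 204 CPM with and 250 CPM without in BKO, 225 and 291 CPM in WT replicate 1, and 240 and 294 CPM in WT replicate 2. In Tfr cells they were 205 and 227 CPM in BKO, 178 and 247 CPM in WT replicate 1, and 185 and 281 CPM in WT replicate 2, the 1 such split of Nfatc3 that passed the rule. Without subcluster 3 its log2 ratios were -0.13 in BKO and -0.26 and -0.24 in WT for Tfh cells, each with an interval that spans 0. The second draw of the thinning gave -0.13 in BKO and -0.29 and -0.22 in WT for the whole Tfh class. For Tfr cells it gave -0.09 in BKO, -0.26 in WT replicate 1 and -0.57 in WT replicate 2, no longer called. In that draw the intervals spanned 0 in BKO for both classes and in WT replicate 1 for Tfr cells. In the first draw that of BKO Tfr cells did. Ppp3ca was called lower in WT replicate 2 in both classes, with 50.7 CPM with and 76.6 CPM without in Tfh cells and 67.6 and 112 CPM in Tfr cells, from few UMIs in the cells with (37 in Tfh cells). Ppp3cb and Ppp3cc were called lower in Tfr cells of WT replicate 2 (21 and 24 UMIs in the cells with). The share of all genes called lower was 2.64% in BKO and 5.89% and 5.02% in WT for Tfh cells, and 5.11% in BKO and 9.39% and 8.89% in WT for Tfr cells.

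**Figure D5:**
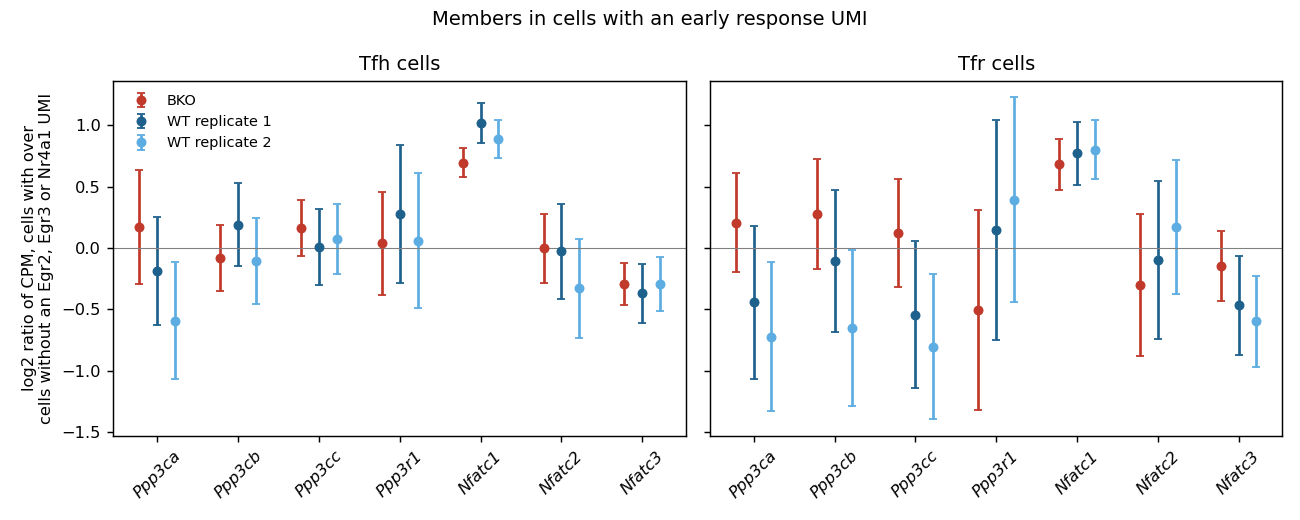
Log2 ratio of cells with over cells without a UMI of Egr2, Egr3 or Nr4a1, for 7 members (Rcan1 left out as too sparse), in each library and class, with 95% counting intervals. Nfatc1 lies above 0 in all 6 comparisons (1.61-fold to 2.03-fold), and Nfatc3 below 0 in all 6.

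The genes most like Nfatc1 across subclusters were ranked by the smaller of 2 Pearson r values, over 11 subclusters of BKO and 12 of WT replicate 2 with at least 100 cells, among 6033 genes. They were Mfsd14a (0.89), Zfand5 (0.88), Cdh23 (0.87), Egr1 (0.86), an immediate early transcription factor, and Rnft1 (0.84). For Rcan1 they were Sh3rf1 (0.78), Hnrnpc (0.76), Prkca (0.75), Nrp1 (0.74) and Tusc3 (0.72), on sparse counts. The points of each r share a library, and the 2 libraries share the authors' clustering, so these values only describe.

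The rest of the pathway was followed by lists of genes. Of the wider family, Nfat5, the tonicity-responsive factor that calcineurin does not control, had 102 CPM in BKO Tfh cells, against 137 and 142 CPM in WT (log2 -0.45), and 129 CPM in BKO Tfr cells, against 176 and 170 CPM in WT (log2 -0.42), not called. Nfatc4 and Ppp3r2 gave 0 UMIs in every library and class. A count of 0 allows up to 0.0686 CPM in BKO Tfh cells, against 0.160 and 0.100 CPM in WT Tfh cells, and up to 0.196 CPM in BKO Tfr cells, against 0.361 and 0.222 CPM in WT Tfr cells.

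Upstream, 20 of 21 genes that carry the receptor signal to calcium were measured in each class. In both classes 0 were higher in BKO and 1 was lower, beside the 2.45% of Tfh and 2.4% of Tfr genes lower in all: Itpr1, the calcium-release channel of the endoplasmic reticulum. Itpr1 had 104 CPM in BKO Tfh cells, against 183 and 180 CPM in WT (log2 -0.81), and 102 CPM in BKO Tfr cells, against 181 and 174 CPM in WT (log2 -0.79). Its 320 kb of intron place it among the longest genes, and with the intron trend taken off the ratios were -0.42 in Tfh and -0.38 in Tfr cells, no longer called. The list's median log2 ratio was -0.05 in Tfh and -0.10 in Tfr cells, beside -0.10 and -0.09 for all genes. The most abundant members were the receptor chains Cd3g, Cd3d and Cd3e; Cd3e, for instance, had 853 CPM in BKO Tfh cells, against 676 and 775 CPM in WT, and 944 CPM in BKO Tfr cells, against 664 and 757 CPM in WT.

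Of the 17 inhibitors, export kinases and immunophilins, 10 were measured in each class and 0 were called, where 2.85% of all Tfh and 3.29% of all Tfr genes were called in either direction, with medians of -0.11 in Tfh and -0.06 in Tfr cells. Ppia, which encodes cyclophilin A, the receptor of cyclosporin, had 1612 CPM in BKO Tfh cells, against 1422 and 1379 CPM in WT. Fkbp1a, which encodes the receptor of tacrolimus, had 238 CPM in BKO Tfh cells, against 214 and 210 CPM in WT. Gsk3b, a kinase that phosphorylates NFAT for export, had 163 CPM in BKO Tfh cells, against 218 and 219 CPM in WT.

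Of the 13 NFAT partners, 7 were measured in Tfh and 8 in Tfr cells and 0 were called, beside the same 2.85% and 3.29% of all genes, with medians of 0.19 and 0.29. Maf, a Tfh-associated factor, had 1188 CPM in BKO Tfh cells, against 811 and 953 CPM in WT (log2 0.43), and 1479 CPM in BKO Tfr cells, against 901 and 1035 CPM in WT (log2 0.61). In Tfr cells it passed 1.5-fold over WT replicate 1 but not over WT replicate 2. With TMM factors Maf and Junb were called higher in Tfr cells. Batf, an AP-1 family member, had 149 CPM in BKO Tfh cells, against 153 and 143 CPM in WT, and 301 CPM in BKO Tfr cells, against 239 and 227 CPM in WT.

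Of the 25 NFAT targets, 15 were measured in Tfh cells, where 2 were lower in BKO and 0 higher, with a median of 0.02, beside 2.45% lower and 0.396% higher among all genes. Ccl4, a chemokine, had 0.412 CPM in BKO Tfh cells, against 107 and 102 CPM in WT, and 94.9% and 94.4% of its WT Tfh UMIs lay in subcluster 5. Xcl1, another chemokine, had 9.02 CPM in BKO, against 27.5 and 28.1 CPM in WT. Both genes lay under 20 CPM in BKO and passed the minimum mean only through WT, which gives 2 of the 3 samples averaged. Without subcluster 5 the log2 ratios were -2.98 for Ccl4 and -1.36 for Xcl1 (-1.57 with it), and neither was called because their means fell under 20 CPM. The Xcl1 call was also lost on leaving out either WT run, at -1.59 and -1.56, because its mean then fell under 20 CPM. With TMM or median-of-ratios factors, or without WT replicate 2, Il21, a Tfh cytokine, and Lag3 were called higher in BKO Tfh cells, and without subcluster 5 or with equal weights Lag3 was. In Tfr cells 13 targets were measured, 2 were higher in BKO and 0 lower, with a median of -0.24, beside 0.887% higher and 2.4% lower among all genes. Ctla4, an inhibitory receptor of regulatory T cells, had 615 CPM in BKO, against 357 and 355 CPM in WT (log2 0.79), and Lag3, another inhibitory receptor, 118 CPM against 49.3 and 47.5 CPM (log2 1.28). With the same weight of subclusters in every library Lag3 was still called, at 0.96, and Ctla4 was not, at 0.51. Tox, which encodes a factor of Tfh development and exhaustion, had 2297 CPM in BKO Tfh cells, against 3011 and 2976 CPM in WT (log2 -0.38), and Pdcd1, which encodes PD-1, 303 CPM against 236 and 238 CPM (log2 0.36), neither of them called. The part of the subcluster makeup, intron counting and free RNA in these results was not tested.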

How the data were processed

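The files hold raw UMI counts per gene and cell, deposited by the authors as 1 matrix per sample, and tables of cells with the authors' class and subcluster (other values: labels, at resolution 0.3, per the file headers). Per the file headers, WT matrices were made with cellranger-7.0.1 and the BKO matrix with Cell Ranger 4; the submitters' processing notes name mm10. The BKO matrix is unfiltered (1275404 barcodes), and cells were limited to those in the authors' tables, in which classes and clusters were taken as given; no doublet caller was run, and no label or header records a removal of doublets. Matrix totals were 85225125 UMIs in BKO and 32518538 and 54059000 in WT replicates 1 and 2. The number of columns that could not be mapped to a sample was 0.

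UMIs were summed by sample, class and subcluster and scaled to CPM (counts per 1000000 summed UMIs). Log2 ratios of BKO over the mean of the WT runs used a pseudocount of 0.5 CPM; calls used CPM without it (minimum mean 20 CPM, 1.5-fold beyond both runs, or 1.5-fold between classes or between groups of cells within a library). There is 1 library per genotype, so no p-value was computed. Intervals are 95% exact Poisson for sums, exact Clopper-Pearson for shares and delta-method for log2 ratios, and cover counting error only. Shares and the split by early response genes used cells thinned to 2500 UMIs; cells below that were left out (75 in BKO, 230 and 58 in WT). Gene spans and introns came from GENCODE vM21 (GRCm38), which holds 32235 of the 32285 features (99.8%). The calling step was tested on simulated counts. These were Poisson draws with the WT runs drawn independently, so they do not cover differences between libraries, in makeup or in counting program.

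The members, marker lists and pathway lists were chosen with earlier results of these data known. Named from each list were the called genes and up to 4 of highest mean CPM; for Nfatc1 and Rcan1 the 5 genes most like each over subclusters of at least 100 cells, with a mean of at least 20 CPM, on log2(CPM + 1). Alternatives covered scaling, minimum, fold, pseudocount, weighting of cells and subclusters, WT class assignment, each WT run left out, intron length (running median of 30 bins taken off), cell minimum and thinning depth. Analyses used Python 3.11.15, numpy 2.4.6, scipy 1.17.1, pandas 2.3.3 and matplotlib 3.10.9.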

Additional observations from a re-analysis of the deposited data

Results flagged for a closer look

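For 6 members, BKO lay above both WT runs in some subclusters and below both in others. This was counted over the 12 subclusters with at least 50 cells in every library, and none of these differences between subclusters was tested. The share of all genes with such a pattern is not given here, and the WT runs hold the same cells. The median log2 ratio of all measured genes was below 0 in each of the 12, from -0.113 in Tfr subcluster 2 to -0.0172 in Tfh subcluster 0. Ppp3ca was above both runs in 1 subcluster and below both in 11; the exception was Tfr subcluster 4, with 85.2 CPM in BKO and 58.4 and 73.0 CPM in WT (log2 0.37). Ppp3cc was above in 1 and below in 10, with 158 CPM in BKO and 134 and 135 CPM in WT in Tfh subcluster 6 (log2 0.24). Ppp3r1 was above in 2 and below in 4, and its highest ratio was in Tfr subcluster 4, with 35.5 CPM in BKO and 32.3 and 26.2 CPM in WT (log2 0.28). Nfatc1 was above in 2 and below in 9, with 298 CPM in BKO and 257 and 257 CPM in WT in Tfh subcluster 6 (log2 0.21). Nfatc3 was above in 1 and below in 7, with 281 CPM in BKO and 268 and 273 CPM in WT in Tfh subcluster 0 (log2 0.06). Rcan1 was above in 1 and below in 7, with 17.3 CPM in BKO and 11.8 and 11.3 CPM in WT in Tfr subcluster 0 (log2 0.56). For Ppp3cb and Nfatc2, BKO lay above both runs in 0 subclusters and below both in 11.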

How the results depend on the processing

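Of 728 recomputed values, 523 moved by less than their counting error or within 1.5 times, 205 moved further and 0 called values changed sign; the cause was not tested. For Ppp3ca in Tfh cells the log2 ratio (-1.51) was -1.55 to -1.47 without 1 WT replicate. It was -1.36 with TMM factors, -1.37 with median-of-ratios factors and -1.13 with the intron trend taken off. With the same subcluster weights in every library (equal weights) it was -0.54, and 0 members were called. It was -0.95 without Tfh subclusters 5 and 6, and -0.98 without Tfh subcluster 5, the last chosen after seeing the data. In Tfr cells (-0.18) it was -0.0677 with TMM and -0.0656 with median-of-ratios factors, 0.21 with the intron trend taken off and -0.31 with equal weights. The difference between the classes (1.33) was 0.23 with equal weights and 0.81 without Tfh subclusters 5 and 6 and Tfr subcluster 6.

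Genes called higher in BKO Tfh cells (26) numbered 33 to 56 without 1 WT replicate, 62 with TMM, 58 with median-of-ratios, 68 at a minimum of 5 CPM, 705 with no minimum and 145 at a 25% difference. Those lower (161) numbered 165 to 180 without 1 WT replicate, 85 with TMM, 86 with median-of-ratios, 424 at 5 CPM, 2369 with no minimum, 1045 at a 25% difference, 84 with the intron trend taken off and 34 with equal weights. In Tfr cells the 58 higher became 76 to 95 without 1 WT replicate, 101 with TMM, 102 with median-of-ratios, 138 at 5 CPM, 765 with no minimum, 310 at a 25% difference and 22 with equal weights. The 157 lower became 190 to 201 without 1 WT replicate, 75 with either scaling, 336 at 5 CPM, 1776 with no minimum, 1110 at a 25% difference, 47 with the intron trend taken off and 50 with equal weights. At a 25% difference, 2 members were lower in BKO Tfr cells (Ppp3cc and Nfatc2). Between Tfr and Tfh cells at that difference, 1 member was lower in Tfr cells of BKO and 1 was higher in Tfr cells of each WT run. Ppp3ca, 3.43-fold higher in Tfr than in Tfh cells of BKO, passed that difference there too.

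No paired analysis was possible because BKO and WT share 1 replicate number and no test was run. Limits: 1 library per genotype, WT samples that are 2 runs of the same cells, 11 BKO cells in Tfh subcluster 5, counting programs that differ between the genotypes, and few UMIs for Rcan1.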

Other observations

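In the BKO matrix, 907649 barcodes of 1 to 50 UMIs held 1686503 UMIs, which give the makeup of RNA outside cells; the WT matrices hold called cells only. Nfatc1 stood at 293 CPM in these low barcodes and 297 CPM in the kept BKO cells, and Ppp3cb at 76.5 and 80.4 CPM. Ppp3ca stood at 26.1 and 43.1 CPM, Ppp3cc at 78.3 and 102 CPM, and Ppp3r1 at 20.8 and 33.3 CPM. Rcan1 and Nfatc2 were higher in the low barcodes, at 13.6 and 8.87 CPM for Rcan1 and 78.9 and 72.5 CPM for Nfatc2. The part of this RNA in the levels of the members was not tested.

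For Ppp3ca, asked after its values were seen, the genes with the most similar levels over 11 subclusters of BKO and 12 of WT replicate 2 were Foxn3, Zbtb38, Sema4d, Cd48 and Ptger4, with a smaller Pearson r of 0.87 to 0.92. Tfh subcluster 8, with 46 cells in BKO, had 18.7 CPM of Ppp3ca in BKO, against 93.6 and 109 CPM in WT. Tfr subcluster 6 had 0 BKO cells, against 27 and 20 WT cells in which Ppp3ca stood at 198 and 241 CPM.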
